A study of Mus musculus with 3 samples.

Results

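Vegfa, Vegfc, Apln, Angpt1 and Angpt2 are genes of secreted ligands, and Kdr, Flt1, Flt4, Aplnr and Tek are genes of the receptors they act on. These 10 genes were taken as a named set, by symbol, from the 33696 genes counted in dorsal skin cells of 9-week-old female C57BL/6 mice. The cells came from 3 groups: mice of a chemotherapy-induced alopecia model given venlafaxine (CIA+VFX), mice of that model without venlafaxine (CIA), and vehicle-treated mice (Cont). Each group gave 1 single-cell RNA library from pooled skin. How many mice went into a pool is not given, and the hair had been removed with wax. Which drug the model uses, how much of it was given and when skin was taken are not given in the sources used here, nor is the stage of the hair cycle.

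VEGF ligands drive the growth and permeability of vessels: Vegfa acts on blood vessel endothelium through Kdr, with Flt1 as a high-affinity receptor that can hold ligand away from Kdr, and Vegfc acts on lymphatic endothelium mainly through Flt4. Apelin, the product of Apln, signals through the G protein-coupled receptor Aplnr and is made by endothelial cells at the front of growing vessels. Angpt1, made by cells around vessels, activates the receptor tyrosine kinase Tek and steadies the vessel wall, whereas Angpt2, made by endothelial cells themselves, can oppose it. In mouse skin the vessels around follicles widen while hair grows, and keratinocytes of the outer root sheath are a known source of Vegfa.

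The CIA+VFX, CIA and Cont libraries held 18987, 17675 and 14529 barcodes with medians of 4923, 4977 and 5950 UMIs, that is counted transcript molecules. After filters on genes, mitochondrial share and doublets, 15372 CIA+VFX, 15401 CIA and 11904 Cont cells were kept. The CIA library stood apart in mitochondrial UMIs, with a median of 1.42%, against 2.40% in CIA+VFX and 2.32% in Cont. Each pair of libraries had between 75 and 110 barcodes in common. The kept cells fell into 54 clusters. From fixed marker genes, 45 of them were joined into 22 classes called X-like, and 9 clusters stayed unnamed. The 10 genes were neither markers nor used in the clustering. The vascular endothelial-like class expressed all 37 of its markers in every library (42890 CIA+VFX, 43520 CIA and 53640 Cont UMIs of markers on the counts-per-million scale, CPM), and the lymphatic endothelial-like class 21 of its 22. The vascular class held 1049 CIA+VFX, 940 CIA and 186 Cont cells, which were 6.82% of CIA+VFX, 6.10% of CIA and 1.56% of Cont kept cells.

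The UMIs of a gene were added up over the cells of a class in a library and are given as CPM, scaled to the UMIs of that class in that library. CPM of 1 gene can be set against each other between classes and libraries, but not between genes. A gene counted as measured in a comparison with at least 50 UMIs in both libraries together, and it was called higher or lower at 1.5-fold or more. With 1 library per group there was no test and no replicate check behind any difference. The intervals given are exact ones at 95% that cover counting error only. In what follows the class names stand for the X-like classes.

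Among the ligands, Vegfa was most abundant in immune cells. Mast cells and basophils had 377 CPM in CIA+VFX, 232 in CIA and 621 in Cont, where the class held 22 cells. Neutrophils came next with 268, 193 and 476 CPM in CIA+VFX, CIA and Cont. Macrophages and monocytes had 116 CPM in CIA+VFX, 129 in CIA and 129 in Cont. Dermal papilla cells, which lie at the follicle base and signal to the growing hair, had 85.1, 123 and 124 CPM in CIA+VFX, CIA and Cont, a range that overlaps with that of macrophages. Lymphoid cells (T, NK and innate lymphoid) had 89.0 CPM in CIA+VFX, 54.8 in CIA and 163 in Cont. Dendritic cells lay between 77.9 and 105 CPM and fibroblasts between 66.1 and 71.7. Every other class was at or under 67.3 CPM in every library. Follicle cells were among these, with bulge and outer root sheath cells at 25.4, 35.9 and 29.97 CPM in CIA+VFX, CIA and Cont. Among the lowest classes were inner root sheath cells (5.29 to 6.66 CPM) and vascular endothelial cells (5.48 to 9.13 CPM).

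Vegfc was mostly a transcript of mesenchymal cells. Dermal sheath cells had 61.3 CPM in CIA+VFX, 49.5 in CIA and 71.1 in Cont, and fibroblasts 39.9 in CIA+VFX, 29.8 in CIA and 45.0 in Cont. Skeletal muscle cells had 60.0 CPM in CIA+VFX, 19.3 in CIA and 38.4 in Cont, from 22 to 26 UMIs per library. Apln was a transcript of vascular endothelial cells in the model libraries, at 17.4 CPM in CIA+VFX and 14.4 in CIA, against 2.03 in Cont. No other class passed 4.44 CPM, a level that rests on 2 UMIs in CIA neutrophils. Angpt1 was found in mesenchymal classes and in mast cells and basophils. Pericytes and smooth muscle cells had 93.0 CPM in CIA+VFX, 53.8 in CIA and 32.9 in Cont. Fibroblasts had 52.2 CPM in CIA+VFX, 43.1 in CIA and 49.5 in Cont. Dermal sheath cells had 40.4 CPM in CIA+VFX, 22.7 in CIA and 45.8 in Cont. Pericytes led in both model libraries and were below fibroblasts and dermal sheath cells in Cont. Mast cells and basophils had 11.7 CPM of Angpt1 in CIA+VFX (7 UMIs), 37.8 in CIA (27 UMIs), above the dermal sheath level of that library, and 31.0 in Cont (2 UMIs). Angpt2 was highest in lymphatic endothelial cells, with 362 CPM in CIA+VFX, 282 in CIA and 394 in Cont. Pericytes and smooth muscle cells had 120, 133 and 100.3 CPM of Angpt2 in CIA+VFX, CIA and Cont, and vascular endothelial cells 85.8, 113.5 and 62.4 CPM. In CIA the counting intervals of these 2 classes overlapped (114 to 153 and 106 to 122 CPM), and no further class passed 18.3 CPM.

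The receptors were largely endothelial. Flt1 had 2468 CPM in CIA+VFX, 3011 in CIA and 2924 in Cont vascular endothelial cells, and 278 CPM in CIA+VFX, 262 in CIA and 155 in Cont in pericytes and smooth muscle cells. Neutrophils had 68.9 to 73.2 CPM of Flt1, and lymphatic endothelial cells no more than 11.7. Kdr was shared by both endothelial classes. Vascular endothelial cells had 304 CPM of Kdr in CIA+VFX, 415 in CIA and 467 in Cont, and lymphatic endothelial cells 306 CPM in CIA+VFX, 250 in CIA and 268 in Cont. Dermal papilla cells and fibroblasts had 16.5 to 23.8 CPM of Kdr. The small Schwann class (33 CIA+VFX, 75 CIA and 13 Cont cells) had 198.5 CPM of Flt1 in CIA+VFX, 3.12 in CIA and 256 in Cont, from 1 CIA+VFX, 1 CIA and 3 Cont cells with a UMI. Flt4 was highest in lymphatic endothelial cells (295 CPM in CIA+VFX, 268 in CIA and 319 in Cont) and next in vascular ones (29.9 CPM in CIA+VFX, 40.6 in CIA and 45.7 in Cont). Outside these 2 classes Flt4 did not pass 3.35 CPM. Aplnr was found in vascular endothelial cells at 32.0 CPM in CIA+VFX, 25.2 in CIA and 24.4 in Cont, with no other class above 2.31. Tek had 160, 128 and 122 CPM in vascular endothelial cells of CIA+VFX, CIA and Cont, and also 86.0, 86.7 and 93.3 CPM in fibroblasts. Within fibroblasts, the cluster led by Smpd3 and Opcml, with the fibroblast marker Dpp4 among its leading genes, had 381 CPM of Tek in CIA+VFX, 273 in CIA and 300.2 in Cont.

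**Figure D1:**
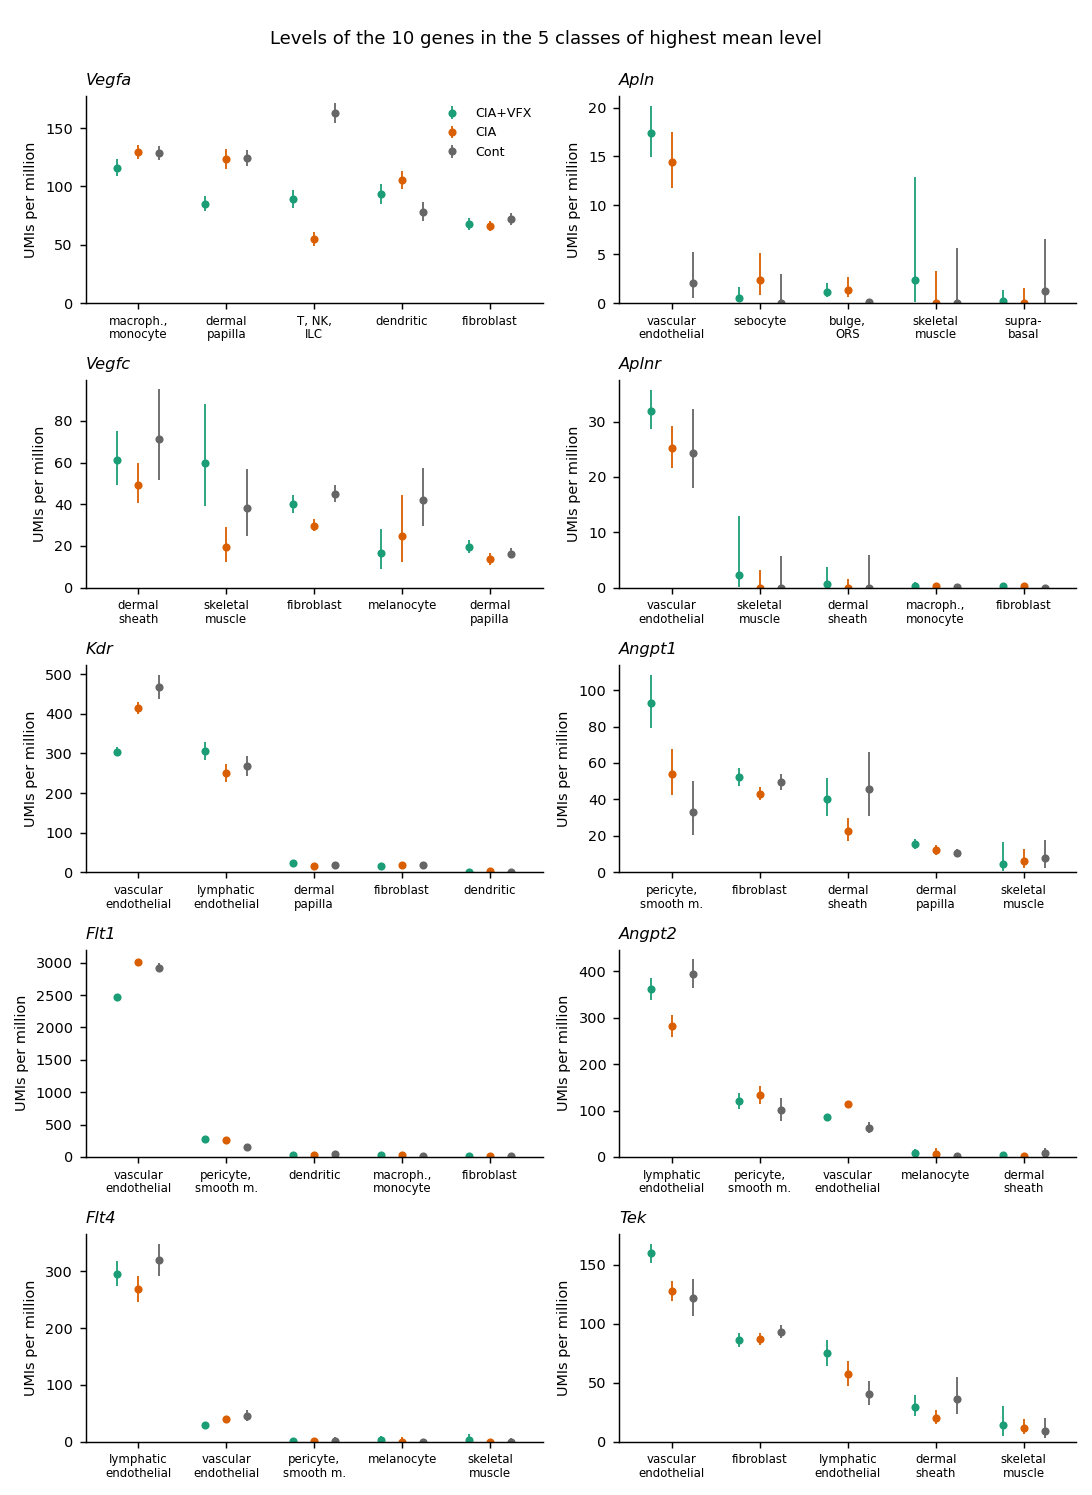
Level of each ligand and receptor gene (CPM) in its classes of highest mean level in the CIA+VFX, CIA and Cont libraries, with 1 library per group. Classes with under 50 cells in any library are not shown, among them mast cells and basophils, and neutrophils. Vegfa spreads over several classes, whereas Apln and Aplnr are near 0 outside vascular endothelial cells and Flt4 is highest in lymphatic ones.

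Reads of free RNA can place a UMI in a cell that does not express the gene. Kdr had a UMI in 58.2% of CIA+VFX, 64.9% of CIA and 75.3% of Cont vascular endothelial cells, with median depths of 5700 UMIs in CIA+VFX, 6180 in CIA and 8480.5 in Cont. The same share was 0.327%, 0.567% and 0.373% in lymphoid cells of CIA+VFX, CIA and Cont, with median depths of 3917, 3900 and 4618 UMIs. For Flt1 the shares were 86.8%, 94.3% and 94.6% in vascular endothelial cells and 1.80%, 2.34% and 0.745% in lymphoid cells of CIA+VFX, CIA and Cont. Thinned to 2000 UMIs per cell, with 310 CIA+VFX, 199 CIA and 21 Cont cells left out as shallower, vascular endothelial cells with a Kdr UMI were 40.9% in CIA+VFX, 47.1% in CIA and 50.9% in Cont. The lower share in the model libraries thus kept its order at equal depth. Kdr in keratinocyte classes, at no more than 1.44 CPM, was of the size seen in lymphoid cells (0.732 to 1.46 CPM) and is not read as expression here. Tek was different: lymphoid cells had 1.10, 0.813 and 0.122 CPM in CIA+VFX, CIA and Cont, whereas companion layer cells had 2.71 CPM in CIA+VFX, 6.97 in CIA and 0 UMIs in Cont.

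The promoters of Apln and Kdr are shown because Apln had the largest ratio of the 10 genes between model and control vascular endothelial cells and Kdr, the main receptor of Vegfa, was lower in vascular endothelial cells of CIA+VFX than of Cont. The bases are the 250 before the RefSeq start on GRCm38.p6, from chrX:48034854-48035103 (minus strand) for Apln and chr5:75978456-75978705 (minus strand) for Kdr, read 5′ to 3′ along the gene. Capitals mark the core of the hypoxia response element, ACGTG or GCGTG, searched on both strands (reverse complements CACGT and CACGC).
Apln: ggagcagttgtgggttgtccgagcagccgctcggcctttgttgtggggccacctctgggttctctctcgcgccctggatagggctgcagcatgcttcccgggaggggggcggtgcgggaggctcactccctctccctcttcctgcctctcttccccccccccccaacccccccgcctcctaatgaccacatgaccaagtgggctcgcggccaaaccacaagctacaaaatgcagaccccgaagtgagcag
Kdr: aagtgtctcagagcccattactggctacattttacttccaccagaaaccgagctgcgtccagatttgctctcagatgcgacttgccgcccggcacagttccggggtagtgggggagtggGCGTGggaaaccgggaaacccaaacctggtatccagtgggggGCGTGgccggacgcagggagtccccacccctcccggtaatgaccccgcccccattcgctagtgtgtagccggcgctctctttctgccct
The Kdr window holds 2 matches, at positions 120 and 162 from its 5′ end, and the Apln window holds 0. Of all 32851 promoters of this length, 38.6% held at least 1 match. Of the 10 genes, 7 had a promoter in the table (8 starts), and 3 of these starts, of Flt1, Kdr and Vegfa, held a match. The genes Aplnr, Angpt1 and Angpt2 had no entry. A match describes letters only, and an empty window says only that these letters are not in it.

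Each gene was compared in every class with at least 50 cells in both libraries, which gave 210 pairs of gene and class for CIA+VFX over CIA and 190 for each comparison with Cont. Of 54 measured pairs for CIA+VFX over CIA, 6 were higher and 5 lower. Over all genes and classes, 5.45% of measured pairs were higher and 4.75% lower in that comparison. Of 46 for CIA over Cont, 7 were higher and 8 lower, against 13.3% higher and 9.04% lower over all genes. Of 54 for CIA+VFX over Cont, 11 were higher and 10 lower, against 11.9% and 7.51%. Pairs within 1.5-fold were thus the majority in all 3 comparisons. The comparisons share libraries and are not independent of each other.

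In vascular endothelial cells, 1 of the 10 genes was higher and 0 lower for CIA+VFX over CIA, where 6.06% of 11045 measured genes were higher and 3.97% lower. For CIA over Cont, 2 of 9 measured genes were higher, Apln and Angpt2, and 0 lower (16.3% and 3.97% of all genes). For CIA+VFX over Cont, Apln was higher and Kdr, Flt4 and Vegfa were lower (18.1% and 4.86% of all genes). The median log2 ratio of the measured genes was -0.17 for CIA+VFX over CIA, 0.05 for CIA over Cont and 0.20 for CIA+VFX over Cont. All measured genes had medians of -0.04 for CIA+VFX over CIA, 0.15 for CIA over Cont and 0.13 for CIA+VFX over Cont. Scaling by trimmed means moved the CIA over Cont values of this class by -0.12 on the log2 scale and called the same genes.

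Apln had 175 UMIs in CIA+VFX, 102 in CIA and 4 in Cont vascular endothelial cells. Its level was 17.4 CPM in CIA+VFX (14.9 to 20.2), 14.4 in CIA (11.7 to 17.5) and 2.03 in Cont (0.553 to 5.197). It was 7.08-fold higher in CIA over Cont (log2 2.82, 1.42 to 4.73) and 8.59-fold higher in CIA+VFX over Cont (log2 3.10, 1.72 to 4.99). Between CIA+VFX and CIA the log2 ratio was 0.28 (-0.08 to 0.64), within 1.5-fold. Both model libraries lay above Cont. At the alternative minimum of 200 UMIs, Apln was not measured in either comparison with Cont. The count of genes of this class higher in CIA over Cont was 1 there, and also 1 after thinning. The class has 2 clusters, and cluster 7, which held 145 of these UMIs in CIA+VFX, 99 in CIA and 4 in Cont, had 29.0 CPM in CIA+VFX, 18.7 in CIA and 2.72 in Cont. There Apln was 1.55-fold higher in CIA+VFX over CIA (log2 0.63, 0.26 to 1.02). The other cluster, 21, made up 44.4% of the class in CIA+VFX, 26.9% in CIA and 24.7% in Cont, and had 5.95 CPM of Apln in CIA+VFX, 1.67 in CIA and 0 UMIs in Cont. A UMI of Apln was found in 7.05% of CIA+VFX, 4.26% of CIA and 2.15% of Cont vascular endothelial cells (74 CIA+VFX, 40 CIA and 4 Cont cells). In lymphoid cells the shares were 0.0816% in CIA+VFX, 0 of 1411 cells in CIA (upper limit of the exact interval 0.261%) and 0.0621% in Cont. The receptor gene Aplnr differed by less than 1.5-fold in all 3 comparisons, with log2 ratios of 0.34 (0.07 to 0.61) for CIA+VFX over CIA and 0.05 (-0.42 to 0.54) for CIA over Cont.

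Angpt2 had 862 UMIs in CIA+VFX, 805 in CIA and 123 in Cont vascular endothelial cells. It was 1.82-fold higher in CIA over Cont (113.5 against 62.4 CPM, log2 0.86, 0.59 to 1.15), and was not called when each cell was classed by its own markers (0.53). The log2 ratio was 0.46 (0.19 to 0.74) for CIA+VFX over Cont and -0.40 (-0.54 to -0.26) for CIA+VFX over CIA. The CIA+VFX level thus lay between those of CIA and Cont. In cluster 7, which held 583 CIA+VFX, 687 CIA and 140 Cont cells of the class, Angpt2 had 116 CPM in CIA+VFX, 130 in CIA and 61.2 in Cont, 2.13-fold higher in CIA over Cont and 1.90-fold higher in CIA+VFX over Cont. Its receptor gene Tek was within 1.5-fold in every comparison, at a log2 ratio of 0.32 (0.20 to 0.44) for CIA+VFX over CIA.

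Kdr had 3057 UMIs in CIA+VFX, 2942 in CIA and 921 in Cont vascular endothelial cells. Its log2 ratio was -0.62 (-0.73 to -0.51) for CIA+VFX over Cont, a call that ended when cells were thinned to equal depth (-0.42) or when doublets were kept (-0.57). It also ended without 4 sub-clusters that have Krt17, Rgs5, Acta2 or Retnla, genes of other cell types, among their leading genes (-0.54), and without these and the sub-cluster led by the erythroid gene Hbb-bs (-0.29). It was -0.45 (-0.52 to -0.37) for CIA+VFX over CIA and -0.17 (-0.28 to -0.06) for CIA over Cont. Flt4 had a log2 ratio of -0.61 (-0.96 to -0.26) for CIA+VFX over Cont, a call that ended under 4 alternatives (-0.37 after thinning to -0.58 with stricter filters) and without the 4 sub-clusters (-0.44) or all 5 (-0.13). Vegfa, with 55 UMIs in CIA+VFX, 50 in CIA and 18 in Cont vascular endothelial cells, was at -0.74 for CIA+VFX over Cont with an interval (-1.53 to 0.12) that includes 0. Flt1 stayed within 1.5-fold, at -0.29 for CIA+VFX over CIA and 0.04 for CIA over Cont.

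Angpt1 was the gene called higher for CIA+VFX over CIA in vascular endothelial cells, with 81 UMIs in CIA+VFX, 24 in CIA and 11 in Cont (8.07 CPM in CIA+VFX, 3.38 in CIA and 5.58 in Cont). The ratio of CIA+VFX over CIA was 2.39-fold (log2 1.25, 0.58 to 1.98; 0.53 as a mean over cells). Markers of pericytes and smooth muscle, the class with most Angpt1 in both model libraries, summed to 3496 CPM in CIA+VFX, 2545 in CIA and 2314 in Cont within this class. Of 32 such markers, 31, 31 and 30 had a UMI in CIA+VFX, CIA and Cont, with Pln at 0 in CIA+VFX and CIA and Actg2 and Cspg4 at 0 in Cont. Fibroblast markers summed to 613.5 CPM in CIA+VFX, 266 in CIA and 327 in Cont, with 32 of 32 detected in CIA+VFX and CIA and 27 in Cont (Col14a1, Cpz, Grem1, Sfrp2 and Thbs4 at 0). Without the 4 sub-clusters with Krt17, Rgs5, Acta2 or Retnla, which held 316 CIA+VFX, 87 CIA and 24 Cont cells, the log2 ratio of Angpt1 was -0.14, the reverse direction. Without the sub-cluster led by Hbb-bs as well (399 CIA+VFX, 242 CIA and 86 Cont cells in all), it was 0.30. Both ways of leaving cells out were chosen after the data were seen. Apln was at 2.72 for CIA over Cont and 3.26 for CIA+VFX over Cont without the 4 sub-clusters, and at 2.19 for CIA over Cont and 2.58 for CIA+VFX over Cont without all 5.

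**Figure D2:**
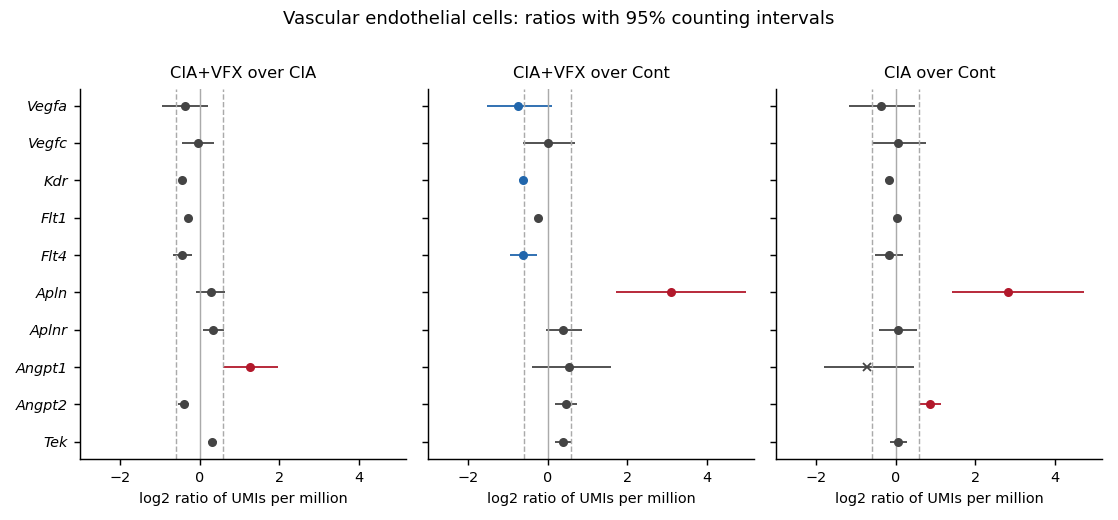
Log2 ratio of each ligand and receptor gene in vascular endothelial cells for CIA+VFX over CIA, CIA+VFX over Cont and CIA over Cont, with exact 95% counting intervals and dashed lines at 1.5-fold. Apln stands at 3.10 and 2.82 in the 2 comparisons with Cont, while Flt1, Aplnr, Tek and Vegfc lie between the lines in all 3. Apln has 4 UMIs in Cont and is measured there through the model libraries alone.

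Vascular endothelial cells were divided further without use of the 10 genes. Capillary-like cells, led by Lpl and Timp4, made up 4.19% of the class in CIA+VFX (44 cells), 4.15% in CIA (39) and 7.53% in Cont (14). A larger sub-cluster held 7.91% of CIA+VFX (83 cells), 16.5% of CIA (155) and 33.3% of Cont (62). Its leading genes were the erythroid genes Hbb-bs, Hba-a1, Hba-a2 and Hbb-bt, followed by Itm2a, Rbp7 and the capillary marker Btnl9, so it was given no cell name and is called the Hbb-bs and Rbp7 sub-cluster. Arterial-like cells were 5.91%, 5.96% and 8.06%, and venous-like cells 9.44%, 11.6% and 10.8% of CIA+VFX, CIA and Cont. A sub-cluster led by Pgf, Kit and Cxcr4, singled out after its values were seen, held 5.34% of CIA+VFX, 9.26% of CIA and 6.45% of Cont cells of the class (56 CIA+VFX, 87 CIA and 12 Cont cells). Cxcr4 is known as a gene of endothelial tip cells. The list of endothelial tip and VEGF-induced genes used below also holds Adm and Trp53i11, which are leading genes here too. It holds Esm1 as well, which is instead among the leading genes of the Hbb-bs and Rbp7 sub-cluster. The Pgf and Cxcr4 sub-cluster was given no cell name.

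In the model libraries Apln was highest in the Pgf and Cxcr4 sub-cluster, with 132 CPM in CIA+VFX (105 to 164), 82.7 in CIA (64.2 to 105) and 12.7 in Cont (1.54 to 45.9, from 2 UMIs). The sub-cluster held 83 of the 175 Apln UMIs of the class in CIA+VFX, 68 of 102 in CIA and 2 of 4 in Cont. There it was 1.60-fold higher in CIA+VFX over CIA (log2 0.67, 0.19 to 1.16). Next in both was a sub-cluster led by Ccdc85a and Mir100hg, with 50.9 CPM of Apln in CIA+VFX (15 UMIs), 20.3 in CIA (7 UMIs) and 21.0 in Cont (1 UMI). The Hbb-bs and Rbp7 sub-cluster had 6.32 CPM of Apln in CIA+VFX, 2.10 in CIA and 0 UMIs in Cont, and arterial-like cells had 0 UMIs in all 3 libraries. Angpt2 was also high in the Pgf and Cxcr4 sub-cluster, at 354 CPM in CIA+VFX, 382 in CIA and 178 in Cont. In the Hbb-bs and Rbp7 sub-cluster Angpt2 had 43.2 CPM in CIA+VFX, 58.2 in CIA and 36.3 in Cont, and its log2 ratio was 0.68 (0.04 to 1.36) for CIA over Cont. Of the vascular endothelial cells with an Apln UMI, 59.5% in CIA+VFX and 57.5% in CIA also had an Angpt2 UMI (3 of 4 cells in Cont), against 23.3%, 27.8% and 23.7% of all cells of the class in CIA+VFX, CIA and Cont. The part of depth per cell in this was not tested.

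Kdr was highest in the Hbb-bs and Rbp7 sub-cluster, at 772 CPM in CIA+VFX, 877 in CIA and 734 in Cont. Its log2 ratio there was 0.07 (-0.09 to 0.23) for CIA+VFX over Cont, beside -0.62 in the whole class. The share of this sub-cluster, 7.91% in CIA+VFX against 33.3% in Cont, moved with the class level, and its part in the difference was not tested. Capillary-like cells had 364 CPM of Kdr in CIA+VFX, 482 in CIA and 357 in Cont, and venous-like cells 170 in CIA+VFX, 163 in CIA and 167 in Cont. Kdr was lower in both model libraries than in Cont in arterial-like cells (170 CPM in CIA+VFX and 111 in CIA against 271 in Cont, where 15 cells were arterial-like). The Pgf and Cxcr4 sub-cluster had 361 CPM of Kdr in CIA+VFX and 382 in CIA, against 502 in Cont. Within cluster 7 the log2 ratio of Kdr was -0.39 (-0.50 to -0.27) for CIA+VFX over Cont, whereas cluster 21 had 164 CPM of Kdr in CIA+VFX, 155 in CIA and 126 in Cont. A lower Kdr level in CIA+VFX than in Cont was thus found in some parts of the class and not in others. Flt4 had 86.3, 96.7 and 75.3 CPM in the Hbb-bs and Rbp7 sub-cluster of CIA+VFX, CIA and Cont, a log2 ratio of 0.20 (-0.31 to 0.71) for CIA+VFX over Cont. Tek was high in the sub-cluster led by Ccdc85a and Mir100hg (284.7, 292.7 and 209.6 CPM in CIA+VFX, CIA and Cont). It was also high in venous-like cells (235, 160 and 202.5 CPM in CIA+VFX, CIA and Cont) and in arterial-like cells (196, 157 and 255 CPM). Vegfc was high in arterial-like cells, at 112 CPM in CIA+VFX, 157 in CIA and 81.4 in Cont. Aplnr had 0 UMIs in arterial-like cells of all 3 libraries and 30.5 CPM in CIA+VFX, 27.3 in CIA and 30.9 in Cont in the Hbb-bs and Rbp7 sub-cluster. Capillary-like cells had 68.2 CPM of Aplnr in CIA+VFX (15 UMIs), 72.95 in CIA (18 UMIs) and 14.3 in Cont (1 UMI). The Ccdc85a and Mir100hg sub-cluster had 71.2 CPM in CIA+VFX, 31.9 in CIA and 21.0 in Cont (1 UMI).

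**Figure D3:**
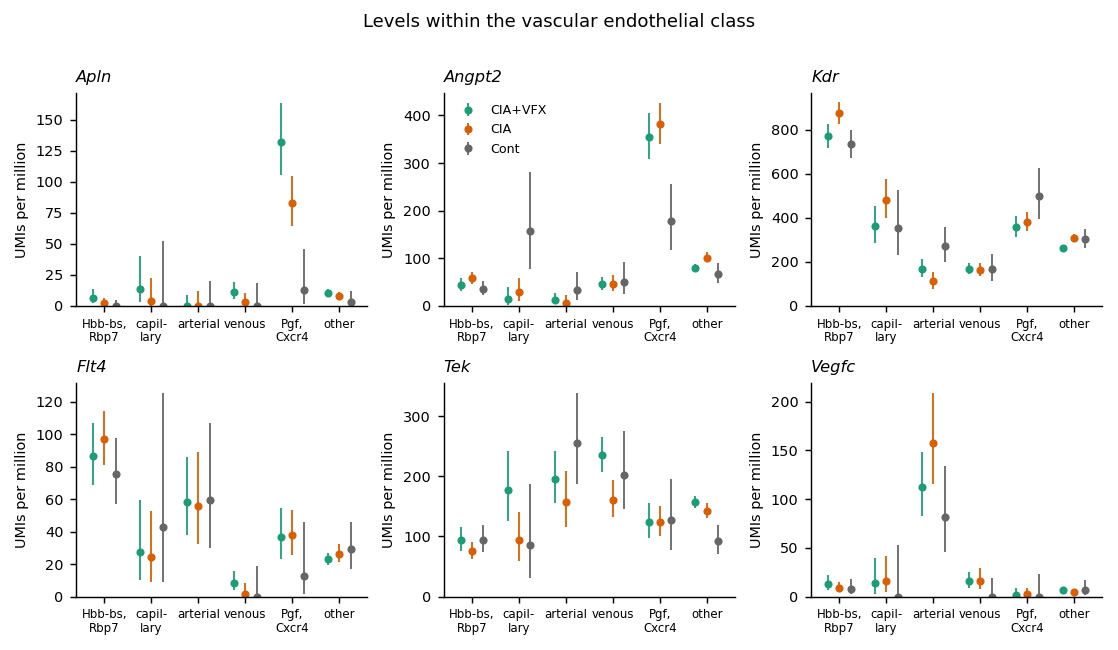
Level (CPM) of the ligand and receptor genes in sub-clusters of vascular endothelial cells in the CIA+VFX, CIA and Cont libraries, with exact 95% counting intervals. In CIA+VFX and CIA, Apln and Angpt2 are highest in the Pgf and Cxcr4 sub-cluster, and in all 3 libraries Kdr is highest in the Hbb-bs and Rbp7 sub-cluster (772 in CIA+VFX, 877 in CIA and 734 in Cont).

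In lymphatic endothelial cells (318 CIA+VFX, 290 CIA and 128 Cont), Flt4, Kdr, Angpt2, Tek and Vegfa were measured. Tek had 187, 116 and 65 UMIs in CIA+VFX, CIA and Cont, or 74.9, 57.1 and 39.98 CPM. It was 1.87-fold higher in CIA+VFX over Cont (log2 0.91, 0.49 to 1.34), a call that ended after thinning (0.31). Markers of vascular endothelial cells, which have more Tek, summed to 8707 CPM in CIA+VFX, 8890 in CIA and 6169 in Cont within this class, with 31 of 32 detected in CIA+VFX, 32 in CIA and 26 in Cont (Car4, Clec14a, Gja5, Sema3g, Sox17 and Vwf at 0), and their part was not tested. Vegfa was lower in CIA+VFX, with 28.0 CPM, against 44.8 in CIA (log2 -0.68, -1.15 to -0.21) and 54.1 in Cont (-0.95, -1.42 to -0.48). Flt4, Kdr and Angpt2 were within 1.5-fold in every comparison. The median of the 5 genes was 0.29 for CIA+VFX over CIA (-0.001 over all genes), -0.25 for CIA over Cont (-0.029) and -0.11 for CIA+VFX over Cont (-0.014). Apln and Aplnr had 0 UMIs, where 3 UMIs would have been 1.20 CPM in CIA+VFX, 1.48 in CIA and 1.85 in Cont. Of lymphatic endothelial cells with a Kdr UMI, 77.0% in CIA+VFX, 74.9% in CIA and 89.8% in Cont had one of Flt4, against 61.0% in CIA+VFX, 61.7% in CIA and 81.3% in Cont of all cells of the class.

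Pericytes and smooth muscle cells held more Angpt1 in CIA+VFX than in CIA or Cont. They had 162 UMIs of Angpt1 in CIA+VFX, 75 in CIA and 21 in Cont. The level was 1.73-fold higher in CIA+VFX over CIA (log2 0.79, 0.39 to 1.20; 0.45 as a mean over cells) and 2.82-fold higher in CIA+VFX over Cont (1.498, 0.84 to 2.23). The ratio of CIA over Cont was 1.64-fold with an interval that includes 0 (log2 0.71, -0.005 to 1.48), and it was under 1.5-fold with stricter filters (0.50) or doublets kept (0.38). The class was made of different clusters in the libraries. Cluster 33 held 56.6% of it in CIA+VFX, 82.0% in CIA and 58.7% in Cont. Cluster 48, led by Rgs5 and shallow (a median of 1164 UMIs in CIA+VFX), held 34.1% in CIA+VFX, 6.0% in CIA and 0 cells in Cont. Cluster 52, led by Myh11 and Actg2, held 9.30% in CIA+VFX, 12.0% in CIA and 41.3% in Cont. Within cluster 33 Angpt1 had 130 CPM in CIA+VFX, 72.1 in CIA and 61.1 in Cont, a log2 ratio of 0.85 (0.44 to 1.27) for CIA+VFX over CIA. Markers of fibroblasts, which also express Angpt1, summed to 3434 CPM in CIA+VFX, 2934 in CIA and 2122 in Cont in this class, with 32 of 33 detected in CIA+VFX, 33 in CIA and 26 in Cont, and their part was not tested.

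Flt1 was called higher in pericytes and smooth muscle cells of both model libraries, 1.79-fold in CIA+VFX over Cont and 1.69-fold in CIA over Cont (log2 0.55 for CIA+VFX over Cont at a coarser clustering, and 0.27 for CIA over Cont when each cell was classed by its own markers). Cluster 33 had 307 CPM of Flt1 in CIA+VFX, 331 in CIA and 318 in Cont. Cluster 48, whose next best class by markers was vascular endothelial, had 779 CPM in CIA+VFX (120 of the 484 UMIs of the class) and 712 in CIA (20 UMIs). Cluster 52 had 2.47 CPM of Flt1 in CIA+VFX, 3.07 in CIA and 0 UMIs in Cont. Vascular endothelial markers summed to 3658 CPM in CIA+VFX, 2432 in CIA and 2648 in Cont in this class, with 37 of 37 detected in CIA+VFX, 36 in CIA and 29 in Cont. The parts of these in the class difference were not tested. Vegfa was lower in the class, at 16.1 CPM in CIA+VFX (log2 -1.40) and 18.7 in CIA (-1.18), against 42.3 in Cont, from 28 UMIs in CIA+VFX, 26 in CIA and 27 in Cont. Both calls could end, the CIA+VFX over Cont one after thinning (-0.58) and the CIA over Cont one with doublets kept (-0.50).

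Dermal sheath cells and fibroblasts had a few called ratios. In dermal sheath cells (190 CIA+VFX, 280 CIA and 59 Cont), Angpt1 had 40.4 CPM in CIA+VFX, 22.7 in CIA and 45.8 in Cont. Its log2 ratio was 0.83 for CIA+VFX over CIA and -1.01 for CIA over Cont. Vegfa had 30.3 CPM in CIA+VFX, 48.6 in CIA and 19.0 in Cont in the same cells, and log2 ratios of -0.68 for CIA+VFX over CIA, 1.36 for CIA over Cont and 0.68 for CIA+VFX over Cont. Tek was lower there in CIA over Cont (20.1 against 36.3 CPM, -0.86). At a Leiden resolution of 0.8, a coarser clustering, all 6 of these were within 1.5-fold (-0.17 and 0.41 for Vegfa and Angpt1 in CIA+VFX over CIA; -0.01, -0.05 and -0.18 for Vegfa, Angpt1 and Tek in CIA over Cont; -0.18 for Vegfa in CIA+VFX over Cont). In fibroblasts, Vegfc was lower in CIA over Cont (29.8 against 45.0 CPM, log2 -0.60, -0.79 to -0.40), a call that ended under 4 alternatives (-0.47 to -0.54). Flt1 was higher in CIA over Cont (20.4 against 12.7 CPM, 0.68), but at -0.07 once free RNA was subtracted. The cluster with the highest Vegfc (cluster 15) made up 20.1% of CIA+VFX, 16.2% of CIA and 44.4% of Cont fibroblasts.

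Vegfa in lymphoid cells had 486 UMIs in CIA+VFX, 337 in CIA and 1331 in Cont. It was lower in CIA over Cont (54.8 against 163 CPM, log2 -1.57, -1.75 to -1.40) and in CIA+VFX over Cont (-0.87, -1.02 to -0.72), and higher in CIA+VFX over CIA (0.70, 0.50 to 0.91). When each cell was classed by its own markers the CIA+VFX over CIA value was 0.47, and after thinning the CIA+VFX over Cont value was -0.58, both under 1.5-fold. Most of it came from a pair of clusters. The cluster led by Gzma and Ccl5, genes of cytotoxic lymphocytes, had 584 CPM in CIA+VFX, 505 in CIA and 566 in Cont. The cluster led by Gzmc and Xcl1 had 377 CPM in CIA+VFX, 294 in CIA and 343 in Cont, a log2 ratio of -0.22 for CIA over Cont. The first of these made up 3.10% of lymphoid cells in CIA+VFX, 1.91% in CIA and 10.7% in Cont, and the second 13.1% in CIA+VFX, 9.36% in CIA and 17.0% in Cont. Within these clusters the libraries lay within 1.5-fold, while the cluster shares moved with the class level, and their part in it was not tested. Vegfc had 9 UMIs in CIA+VFX, 12 in CIA and 54 in Cont and was lower in CIA+VFX over Cont (log2 -2.00, -3.21 to -0.97) and in CIA over Cont (-1.76, -2.80 to -0.84). The Gzma and Ccl5 cluster held 2 of these UMIs in CIA+VFX, 0 in CIA and 27 in Cont, and the Gzmc and Xcl1 cluster 4 in CIA+VFX, 11 in CIA and 26 in Cont. A further 3 UMIs in CIA+VFX and 1 in CIA lay in a cluster led by Ctla4 and Tnfrsf4.

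In macrophages and monocytes Vegfa was within 1.5-fold in all 3 comparisons, although single clusters were not. The cluster led by Ccl8 and Pf4 had 19.2 CPM of Vegfa in CIA+VFX, 24.8 in CIA and 55.8 in Cont, 0.345-fold for CIA+VFX over Cont and 0.445-fold for CIA over Cont. The cluster led by Lyz1 and Ear2 had 86.4 CPM in CIA+VFX, 113 in CIA and 157 in Cont. The monocyte-gene cluster led by Chil3 and Ly6c2 had the highest level, 186 CPM in CIA+VFX, 195 in CIA and 250 in Cont. It held 54.2% of the class in CIA+VFX and 57.5% in CIA, against 10.7% in Cont. Flt1, known in monocytes as a receptor for migration toward VEGF, was 2.73-fold higher in CIA+VFX over Cont and 2.35-fold higher in CIA over Cont in the class. Within the Chil3 and Ly6c2 cluster it had 50.2 CPM in CIA+VFX, 41.2 in CIA and 39.8 in Cont, and within the Lyz1 and Ear2 cluster 9.59 in CIA+VFX, 12.5 in CIA and 12.3 in Cont. The share of the Chil3 and Ly6c2 cluster moved with the class level of Flt1, and its part in it was not tested.

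**Figure D4:**
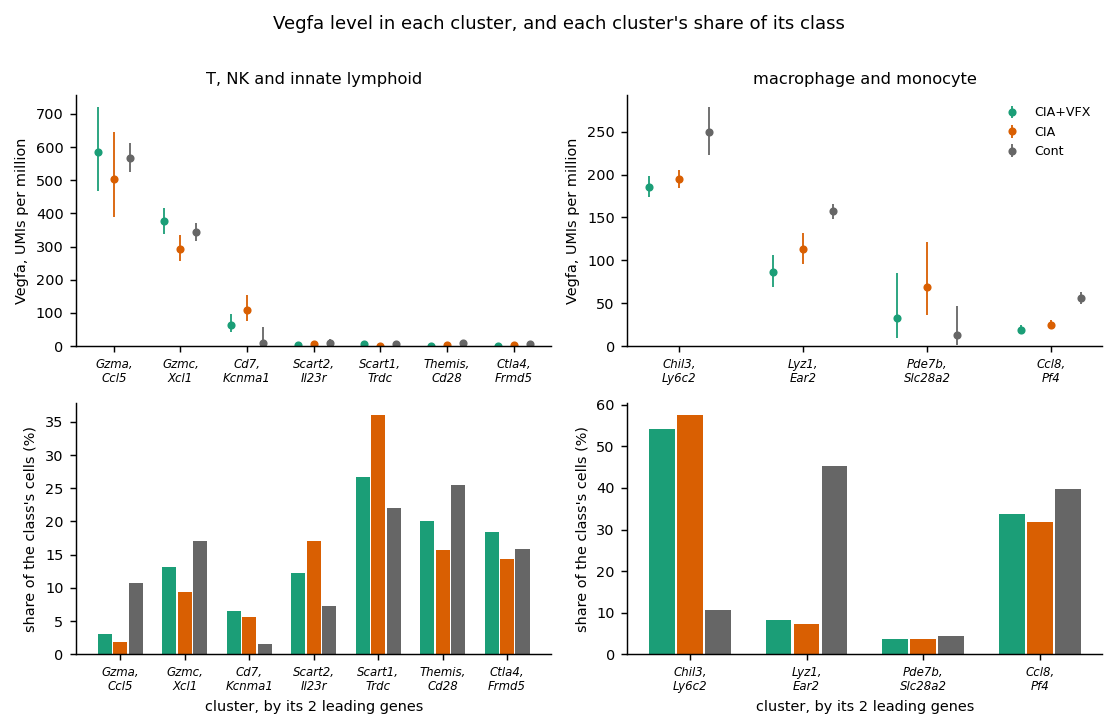
Vegfa level (CPM) in clusters of lymphoid cells and of macrophages and monocytes in the CIA+VFX, CIA and Cont libraries, with exact 95% counting intervals. The 2 cytotoxic-gene clusters lie between 294 and 584 in every library, and the Ccl8 and Pf4 cluster is lower in both model libraries than in Cont.

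Mast cells and basophils, with the highest Vegfa, could be compared between the model libraries. They had 225 UMIs in CIA+VFX (145 cells) and 166 in CIA (140 cells), 1.62-fold higher in CIA+VFX over CIA (log2 0.70, 0.40 to 0.99; 0.33 after thinning, 0.46 by each cell's own markers). In this class 12.4% of 3291 genes were higher and 15.2% lower. The basophil-gene cluster led by Mcpt8 had 404 CPM in CIA+VFX and 232 in CIA, and the mast cell-gene cluster led by Mcpt4 had 221 and 238 CPM. Of 13 measured hypoxia-induced genes in the class, 1 was higher (Ndrg1, 535 CPM in CIA+VFX against 304 in CIA) and 4 were lower, among them the glycolytic genes Tpi1 (83.7 against 154 CPM) and Pgk1 (149 against 225 CPM). Gapdh (661 against 1381 CPM) and Eno1 (66.9 against 136 CPM) were lower too, but both have near-identical copies. The median was -0.44, against 0.02 over all genes of the class.

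In keratinocytes Vegfa was higher in CIA over Cont over all keratinocyte cells (25.7 against 15.8 CPM, 1.63-fold), where 13.5% of all genes were higher and 4.7% lower. No named keratinocyte class was called higher in that comparison. Among unnamed clusters whose best class by markers was a keratinocyte one, Vegfa was higher in CIA over Cont in one led by Ptn and Cldn10 (10.6 against 4.25 CPM, log2 1.32, 0.53 to 2.11) and one led by Dlg2 and Kcnb2 (46.8 against 21.4 CPM, 1.13, 0.53 to 1.77). It was lower in one led by Akr1c18 and Sptlc3 (27.2 against 63.8 CPM, -1.23). Inner root sheath cells, the named keratinocyte class with least Vegfa, were 334 of the 4240 CIA and 864 of the 4425 Cont keratinocytes, and the part of this in the pooled value was not tested. Sebocytes were lower in CIA+VFX (28.4 CPM, log2 -1.24) and CIA (35.5 CPM, -0.92) than in Cont (67.3 CPM). Suprabasal keratinocytes had 22.9 CPM in CIA+VFX, 44.5 in CIA and 33.1 in Cont, a log2 ratio of -0.96 (-1.37 to -0.55) for CIA+VFX over CIA. Matrix and hair shaft cells had 11.3 CPM in CIA+VFX, 12.9 in CIA and 5.44 in Cont (1.06 for CIA+VFX over Cont). Flt1, at most 11.6 CPM in any keratinocyte class, was called in 4 keratinocyte classes. Its log2 ratios were 1.36 in suprabasal and -0.86 in companion layer cells for CIA+VFX over CIA, and 1.29 in suprabasal, 0.83 in inner root sheath and 0.68 in bulge and outer root sheath cells for CIA+VFX over Cont. For CIA+VFX over Cont the suprabasal interval (-0.158 to 3.222) and the bulge interval (-0.138 to 1.503) include 0. The suprabasal value rests on 49 UMIs in CIA+VFX and 4 in Cont. Tek was called lower in companion layer cells (2.71 CPM in CIA+VFX against 6.97 in CIA, -1.36). Of its UMIs there, 11 of 20 in CIA+VFX and 32 of 34 in CIA lay in cluster 38, led by Krt75, which made up 17.3% of the class in CIA+VFX, 37.1% in CIA and 8.58% in Cont. Within cluster 38 Tek had 6.79 CPM in CIA+VFX, 16.0 in CIA and 0 UMIs in Cont. Over all keratinocytes Tek had 1.41 CPM in CIA+VFX, 2.22 in CIA and 0.848 in Cont, Flt1 4.02, 3.13 and 1.64, and Kdr 0.767, 0.771 and 0.273 in CIA+VFX, CIA and Cont. These 3 genes were called higher in both comparisons with Cont (1.66 to 2.83-fold, where 9.29% of all genes were higher and 4.51% lower in CIA+VFX over Cont), Apln was called higher in CIA+VFX over Cont (0.460 against 0.258 CPM, with an interval that includes 0), and Tek was called lower in CIA+VFX over CIA (0.636-fold, where 2.5% of all genes were higher and 5.49% lower). Lymphoid cells, used above as a gauge of free RNA, had 1.71 to 5.69 CPM of Flt1. The Kdr levels of keratinocytes were of the size given above for lymphoid cells, so these Kdr calls are not read as expression. After thinning, the companion layer value of Flt1 was 1.88, the reverse direction, and the inner root sheath and bulge values were 0.23 and 0.18, under 1.5-fold. By each cell's own markers Vegfa in matrix cells was at 0.43 and Tek in companion layer cells at -0.26. At a Leiden resolution of 0.8 Tek in companion layer cells was at 0.44, the reverse direction. The remaining calls were Flt1 in dendritic cells (28.5 CPM in CIA+VFX and 32.0 in CIA against 50.7 in Cont), and Vegfc in melanocytes (16.4 CPM in CIA+VFX against 42.0 in Cont) and skeletal muscle cells (60.0 CPM in CIA+VFX against 38.4 in Cont). After thinning these were under 1.5-fold for CIA+VFX over Cont, at -0.48, -0.45 and 0.40 on the log2 scale. Vegfc in skeletal muscle cells turned to -0.26 by each cell's own markers and -0.07 with stricter filters. The CIA over Cont call of Flt1 in dendritic cells also ended, at -0.42 by each cell's own markers and -0.17 as a mean over cells.

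Over all kept cells, most endothelial genes moved with the share of vascular cells. Flt1 had 249 CPM in CIA+VFX, 232 in CIA and 78.1 in Cont, 2.98-fold higher in CIA over Cont. Kdr had 37.0 CPM in CIA+VFX, 38.6 in CIA and 18.1 in Cont (2.13-fold in CIA over Cont). Aplnr had 3.01 CPM in CIA+VFX, 1.95 in CIA and 0.472 in Cont (4.12-fold), and Apln 1.87 CPM in CIA+VFX, 1.28 in CIA and 0.244 in Cont (5.23-fold). Angpt2 and Tek were 1.99-fold and 1.89-fold higher in CIA over Cont, so 6 of the 10 genes were higher and 0 lower in that comparison, where 13.1% of all genes were higher and 7.23% lower. For CIA+VFX over Cont, 7 were higher, these 6 and Flt4 (8.78 against 5.39 CPM, 1.63-fold), and 0 lower, against 9.44% and 6.44% of all genes. For CIA+VFX over CIA, Aplnr was higher (1.54-fold; log2 0.63, but 0.575 with doublets kept and 0.345 after thinning) and 0 genes were lower, against 4.94% and 8.02% of all genes. Within vascular endothelial cells, of these 6 genes Apln and Angpt2 alone were called in CIA over Cont. Vegfa had 40.6 CPM in CIA+VFX, 57.8 in CIA and 57.1 in Cont and was within 1.5-fold in all 3 comparisons. Vascular endothelial cells gave 74.3%, 81.0% and 58.1% of all Flt1 UMIs in CIA+VFX, CIA and Cont, and 70.0%, 70.3% and 12.9% of those of Apln. In the suspension as a whole, more cells of a type and more RNA per cell cannot be told apart.

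Genes that act with these ligands and receptors were counted in vascular endothelial cells against the shares of all genes given above (6.06% higher and 3.97% lower for CIA+VFX over CIA, 16.3% and 3.97% for CIA over Cont, 18.1% and 4.86% for CIA+VFX over Cont). Of 24 measured signal transducers downstream of VEGF receptors, 0 were called for CIA+VFX over CIA and 1 for CIA over Cont (Nfatc2, a transcription factor activated by calcium, 13.8 against 8.63 CPM). Nfatc2 was also higher in CIA+VFX over Cont (15.4 against 8.63 CPM). Of 9 measured co-receptors and receptor modulators, Sema3a, a semaphorin ligand of neuropilin, was 3.03-fold higher in CIA over Cont (80.1 against 26.4 CPM) and 4.04-fold higher in CIA+VFX over Cont (107 against 26.4 CPM). The integrin gene Itgb3 was higher in CIA over Cont (134 against 86.3 CPM), and Ptprb, the phosphatase that acts on Tek, was lower (709 against 1075 CPM). Gpr182 was higher in CIA+VFX over CIA (29.5 against 19.5 CPM). Of 2 other measured ligands, Vegfb was higher in CIA over Cont (12.4 against 7.10 CPM) and in CIA+VFX over Cont (12.1 against 7.10 CPM), and Pgf lower in CIA+VFX over Cont (29.2 against 44.7 CPM). Of 8 measured regulators of Vegfa transcription, Vhl alone was called in CIA over Cont (6.20 against 4.06 CPM, from 44 and 8 UMIs), and 0 were called in the other comparisons.

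All 25 genes of the list of endothelial tip and VEGF-induced genes were measured in vascular endothelial cells. In CIA+VFX over CIA, 0 were higher and 2 lower, Esm1 (39.8 against 62.6 CPM) and Adm (15.2 against 29.2 CPM), both secreted products of endothelial cells under VEGF or hypoxia. Esm1 is a leading gene of the Hbb-bs and Rbp7 sub-cluster (7.91% of the class in CIA+VFX, 16.5% in CIA). Adm is a leading gene of the Pgf and Cxcr4 sub-cluster (5.34% in CIA+VFX, 9.26% in CIA). The part of these shares in the lower levels was not tested. For CIA over Cont, Mcam (121 against 59.9 CPM), Lxn and Hlx were higher and 0 genes were lower. Mcam is also among the pericyte markers used here. The part of pericyte RNA in this class was not tested. In CIA+VFX over Cont, Mcam, Lxn and Hlx were higher, and Adm (15.2 against 42.6 CPM) and Sox17 (131 against 214 CPM) were lower. Sox17 is also among the arterial markers used here, and the part of the share of arterial-like cells was not tested. The 3 of 25 higher in each comparison with Cont lay below the shares of all genes (16.3% for CIA over Cont and 18.1% for CIA+VFX over Cont). The medians were -0.16, 0.19 and -0.09 for CIA+VFX over CIA, CIA over Cont and CIA+VFX over Cont.

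Hypoxia-induced genes in vascular endothelial cells counted 7 higher and 1 lower of 24 for CIA over Cont (median 0.22, against 0.15 over all genes, of which 16.3% were higher and 3.97% lower). Ankrd37 had 14.0 CPM in CIA+VFX and 21.6 in CIA against 2.54 in Cont, and Pdk1, which turns pyruvate away from mitochondria, 17.7 in CIA+VFX and 19.5 in CIA against 8.12 in Cont. The glycolytic gene Tpi1 had 74.3 and 65.7 CPM in CIA+VFX and CIA against 37.6 in Cont. Of 26 measured for CIA+VFX over CIA, 3 were higher, led by Ndufa4l2 (19.5 against 6.20 CPM), and 2 lower, Adm and Ankrd37. Both lower genes are among the leading genes of the Pgf and Cxcr4 sub-cluster, and the part of its share was not tested. Ndufa4l2 is also a pericyte marker. In CIA+VFX over Cont, 6 of 25 were higher and 4 lower, one of these Ddit4 (83.3 against 152 CPM), where all genes had 18.1% higher and 4.86% lower. The class had 1970731 UMIs in Cont, against 7094824 in CIA and 10041365 in CIA+VFX. A low gene could thus be measured through the model library alone, which favours genes higher there. Counts of this list and of the lists above against Cont are therefore given as a description only.

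Among vessel patterning genes, Sox18 was higher in CIA over Cont (97.0 against 47.7 CPM) and lower in CIA+VFX over CIA (56.8 against 97.0 CPM). Nr2f2, a regulator of venous identity, had 133 CPM in CIA+VFX, 81.9 in CIA and 58.9 in Cont, and Notch1 had 203 CPM in CIA+VFX against 342.5 in Cont. Nr2f2 is among the venous markers used here. Cluster 21, led by Selp, Sele and Ackr1, held 44.4% of the class in CIA+VFX, 26.9% in CIA and 24.7% in Cont. The part of these shares in the Nr2f2 level was not tested. The 19 measured vessel patterning genes had medians of -0.22 for CIA+VFX over CIA, -0.05 for CIA over Cont and -0.28 for CIA+VFX over Cont. Genes of the G2/M phase had the largest medians of the lists: 24 of 25 measured were higher in CIA over Cont and 23 of 25 in CIA+VFX over Cont, with medians of 2.61 (2.45 with 1 gene at 0 in Cont set to its bound) and 2.43. Ube2c had 23.5 CPM in CIA+VFX and 25.2 in CIA against 1.02 in Cont, from 2 Cont UMIs (log2 4.64, 2.76 to 7.69, for CIA over Cont). Between the model libraries, 0 were higher and 7 of 29 lower in CIA+VFX over CIA, among them Ccnb2 (8.07 against 14.0 CPM). A sub-cluster led by Mki67 and Top2a held 15 CIA+VFX, 26 CIA and 0 Cont cells, and its part in these values was not tested. The class had 1970731 UMIs in Cont, 7094824 in CIA and 10041365 in CIA+VFX. A G2/M gene could thus be measured through the model library alone. This filter favours genes higher in the model libraries, so the G2/M counts and medians against Cont are given as a description only. Dissociation and immediate early genes, a sign of handling, had 0 of 20, 1 of 19 (Hsph1, 75.1 against 42.6 CPM) and 1 of 19 genes (Atf3, 489 against 271 CPM) higher, 0 lower, and medians of -0.08, 0.06 and 0.02 for CIA+VFX over CIA, CIA over Cont and CIA+VFX over Cont.

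The genes most like each ligand or receptor over 57 points, 19 classes in 3 libraries, were ranked by Pearson r of log2(CPM + 1) among 16863 genes. Apln was closest to its receptor gene Aplnr (r = 0.815), then to Fam167b and Lhx6, and Aplnr to Fam167b (0.963), Nr5a2 and Mal. Flt4 was closest to the endothelial tight junction gene Cldn5 (0.952), Nova2 and Gpr182, Angpt2 to Ecscr (0.915), Pcdh12 and Adgrf5, Kdr to Rtp3 (0.901), Chst1 and Nova2, and Flt1 to Uchl1 (0.877), Vsig2 and Vwf. Tek was closest to Galnt15 (0.931), Fmo1 and Fmo2, Angpt1 to Ndn (0.923), C1ra and Vstm4, and Vegfc to Pcdh9 (0.892), Tmem47 and Sspn. Vegfa, spread over most classes, had the lowest top value (Otulinl, 0.745), before Prkcb and Emb. Points of 1 class share a cell type and points of 1 library share their processing, so r is given as a description.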

How the data were processed

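Single-cell 3′ RNA libraries (Chromium GEM-X) of dorsal skin, 1 per group, were deposited by the authors as raw UMI counts per gene and barcode, made with Cell Ranger 8.0.1 per the submitters' processing notes, which also name FastQC 0.11.7 and GRCm39. Barcodes with under 500 genes or over 15% mitochondrial UMIs were dropped from these counts. Doublets were removed by a caller that counts simulated neighbours, at 0.4% per 1000 barcodes, which marked 7.60% of CIA+VFX, 7.07% of CIA and 5.81% of Cont cells. Clustering used 2000 variable genes, 40 components, 20 neighbours and Leiden resolution 1.5 (scanpy 1.11.5, leidenalg 0.10.2, Python 3.11.15), without the 10 ligand and receptor genes. Clusters were named from marker lists, with score thresholds set after the clusters were seen. Vascular endothelial cells were divided again with 1000 variable genes, 20 components and resolution 1. A sub-cluster got no cell name where its 10 leading genes held more markers of another cell type than of its own. Ratios of summed counts have exact binomial intervals at 95% (scipy 1.17.1), and levels exact Poisson intervals. The ratio and its interval were tested on simulated counts of vascular endothelial cells with set fold changes. The simulated counts carry counting error only, and the other steps were not tested in this way.

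Named genes were the 10 ligands and receptors, up to 4 genes per pathway list and direction past the 1.5-fold call by size, and, for each of the 10, the 3 with the highest correlation. The members and lists were chosen with earlier results of these data known. Alternatives were trimmed-mean scaling (TMM, edgeR 4.0.16), median-of-ratios scaling, Leiden resolutions 0.8 and 2.5, stricter filters (1000 genes, 8% mitochondrial UMIs), no doublet removal, cells classed by their own markers, thinning to 2000 UMIs, means over cells, free RNA subtraction, minimums of 10 and 200 UMIs, and a 2-fold call. Schwann, mast cell and neutrophil classes had under 50 Cont cells and were not compared with Cont. Unnamed clusters held 3660 CIA+VFX, 2874 CIA and 2218 Cont cells. Promoter sequences are RefSeq's on GRCm38.p6, used for sequence only.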

Additional observations from a re-analysis of the deposited data

Results flagged for a closer look

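A cluster that got no class name, led by Rgs5, Gm13889, Abcc9 and Fabp4 (genes of pericytes and of capillary endothelium), lay outside the class comparisons and held 160 CIA+VFX, 98 CIA and 62 Cont cells. Its relative median depth was 2.51, against 1.2 in vascular endothelial cluster 7 and 0.915 in pericyte cluster 33. Its marker score was 2.61 for vascular endothelial cells and 1.48 for pericytes and smooth muscle cells. The part of doublets in its values was not tested. In this cluster Vegfc and Angpt1 were higher in CIA+VFX than in Cont. For CIA over Cont both genes had too few UMIs to count as measured. Vegfc had 28.7 CPM in CIA+VFX (80 UMIs) and 8.37 in CIA (10 UMIs), against 6.52 in Cont (8 UMIs), a log2 ratio of 2.14 for CIA+VFX over Cont. Angpt1 had 25.1 CPM in CIA+VFX (70 UMIs) and 12.6 in CIA (15 UMIs), against 8.15 in Cont (10 UMIs), a log2 ratio of 1.63 for CIA+VFX over Cont. The same cluster had 2502 CPM of the endothelial gene Flt1 in CIA+VFX, 2839 in CIA and 2614 in Cont.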

How the results depend on the processing

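Depth limits the low genes: Apln in Cont vascular endothelial cells rests on 4 UMIs. Over 111 values of the 10 genes and 10 alternatives, 852 of 978 recomputed values moved by less than their interval, 115 moved by more (46 after thinning and 36 as means over cells) and 11 changed sign. On the log2 scale these 11 were Flt1 in companion layer cells for CIA+VFX over CIA, at 0.59 without doublet removal, 1.88 thinned and 0.092 as a mean over cells, Tek in the same cells at 0.44 (resolution 0.8), Vegfa in dermal sheath cells for CIA over Cont at -0.012 (0.8), and for CIA+VFX over Cont at -0.12 (own markers), -0.18 (0.8) and -0.18 (mean over cells), Flt1 in fibroblasts for CIA over Cont at -0.073 (free RNA subtracted), and Vegfc in skeletal muscle cells for CIA+VFX over Cont at -0.26 (own markers) and -0.07 (stricter filters). Angpt1 in vascular endothelial cells for CIA+VFX over CIA was at -0.14 without 4 sub-clusters with Krt17, Rgs5, Acta2 or Retnla among their leading genes, and at 0.30 without these and the Hbb-bs and Rbp7 sub-cluster, alternatives chosen after seeing the data. Both values rest on too few UMIs to count as measured. The cause of these changes was not tested.

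For CIA+VFX over CIA, the 6 higher pairs became 13 without doublet removal, 3 thinned, 23 at a minimum of 10 UMIs, 3 at 200 and 2 at 2-fold, and the 5 lower pairs 3 (resolution 2.5), 0 (thinned), 14 (10 UMIs), 1 (200 UMIs) and 1 (2-fold). For CIA over Cont, the 7 higher pairs became 12 by own markers and as means over cells, 24 (10 UMIs), 4 (200 UMIs) and 3 (2-fold), and the 8 lower pairs 2 (thinned), 20 (10 UMIs), 3 (200 UMIs) and 4 (2-fold). For CIA+VFX over Cont, the 11 higher pairs became 6 (thinned), 32 (10 UMIs), 3 (200 UMIs) and 5 (2-fold), and the 10 lower pairs 1 (thinned), 18 (10 UMIs), 5 (200 UMIs) and 4 (2-fold). In vascular endothelial cells, the 1 gene higher in CIA+VFX over CIA became 0 (thinned, 200 UMIs, without 4 or 5 sub-clusters) and the 0 lower 1 (no doublet removal, mean over cells). The 2 higher in CIA over Cont became 1 (own markers, thinned, 200 UMIs, 2-fold) and the 0 lower 1 (no doublet removal, free RNA subtracted, 10 UMIs). The 1 higher in CIA+VFX over Cont became 3 (own markers), 2 (resolution 2.5, no doublet removal, without 4 sub-clusters), 4 (mean over cells) and 0 (200 UMIs), and the 3 lower 1 (no doublet removal, without 4 sub-clusters) and 0 (thinned, 2-fold, without 5 sub-clusters). No paired analysis was possible because each group has 1 library.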

Other observations

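The cluster of vascular endothelial cells led by Selp, Sele and Ackr1, adhesion and chemokine-binding genes of venules, held 44.4% of the class in CIA+VFX (466 cells), 26.9% in CIA (253) and 24.7% in Cont (46). Vascular endothelial cells with an Angpt2 UMI also had one of Tek in 79.9% in CIA+VFX, 65.5% in CIA and 63.6% in Cont, against 55.2%, 48.8% and 54.8% of all cells of the class in CIA+VFX, CIA and Cont. Cells with an Apln UMI had one of Aplnr in 27.0% in CIA+VFX, 27.5% in CIA and 25.0% in Cont (1 of 4 cells), against 17.7%, 11.9% and 16.7% of the class. The part of depth in these shares was not tested.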
